A study of Mus musculus with 2 samples.

Results

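The tripartite motif (TRIM) genes are described here in LPS-treated mouse macrophages without c-Maf, set against macrophages with 1 copy. Members were all non-control probes whose gene name in the deposited array annotation is Trim followed by a digit, which gave 100 probes for 67 genes out of 34650 gene names on the array. Of these genes, 41 were measured on both arrays, meaning that at least 1 probe was well above background on each. A further 4 were well above background on 1 array only and 22 on neither. The cells were bone marrow-derived macrophages grown for 5 days in M-CSF and stimulated for 5 h with 100 ng/ml LPS, a bacterial ligand of Toll-like receptor 4. The compared genotypes were c-Maf+/- and c-Maf-/-, so the control also lacked 1 copy of the gene, and the labels state neither which part of Maf was deleted nor the age of the mice, nor whether animals were pooled. Each genotype was measured on 1 array, so no test between genotypes was possible and every difference is between 2 arrays without a replicate check.

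TRIM proteins share an N-terminal module of a RING finger, B-box zinc fingers and a coiled coil, and the RING finger makes most of them E3 ubiquitin ligases. The C-terminal domain differs between members and chooses the target: SPRY domains read proteins such as viral capsids or antibody, NHL repeats bind RNA or protein, and the PHD finger with a bromodomain reads histones. Many SPRY members are induced by interferon and act in antiviral sensing, where they attach ubiquitin to pattern receptors, to their adaptors or to kinases of the NF-kB pathway. In LPS-treated macrophages, interferon beta made by the cells themselves is known to induce such genes.

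The arrays were of similar quality, with 45.3% (control genotype) and 44.9% (knockout) of non-control spots well above background and 0 saturated spots on either. Maf itself checked the genotype labels: the signal of its brighter probe was 15101.5 in the control and 12.6, not well above background, in the knockout. That is 636-fold lower when the lowest signal flagged well above background on the knockout array stands for the dim one. All 9 macrophage markers fixed for the comparison were measured on both arrays, from Mertk, the dimmest (271.2 and 73.5), to the brightest, Cd14, and 6 of the 9 were below 0 (median log2 difference, knockout minus control, -0.40; summed signals of 246188.4 and 279748.4). Neutrophil markers were lower in c-Maf-/- for 9 of 9 genes (median -1.01, summed signals of 99715.8 and 55114.5), and dendritic cell markers for 5 of 7 (median -0.60, summed signals of 44633.7 and 46526.2), with Xcr1 on neither array. Most of the dendritic cell sums came from Siglech (41553.6 and 43949.0). Markers of stroma and endothelium were lower for 5 of 5 measured genes (median -0.40, summed signals of 3644.9 and 2769.5). Of the 6 T and NK cell markers 3 were measured, Cd3e (959.1 and 1115.4), Cd4 (1609.4 and 1515.6) and Lck (1530.0 and 810.0), with summed signals of 4098.4 and 3441.0, while Cd3g, Cd8a and Ncr1 were on neither array. Of the 5 B cell markers 2 were measured, Cd79a (69.2 and 55.9) and Cd79b (55.6 and 81.2), with summed signals of 124.8 and 137.1, while Ms4a1 and Pax5 were among those on neither array. The part of such cells in the differences below was not tested. In bulk RNA, fewer cells of a type and less RNA per cell cannot be told apart.

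Values are signals, which are linear processed intensities, and log2 differences, which are c-Maf-/- minus c-Maf+/- after each array was scaled to its own 75th percentile. The ± value is derived from the error that the scanner software's error model gives for each probe. For a gene with several measured probes these errors were combined as if independent, which makes the ± value of such genes smaller. The ± value covers the array alone, not cultures or mice, and was added after the values were seen.

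As a whole the family did not lie to 1 side. Over the 41 measured genes the median log2 difference was -0.05 and 22 (53.7%) were below 0, where over 11687 measured genes the median was -0.02 and 53.6% were below 0. Few members were far from 0: 1 was at least 2-fold lower and 2 were at least 2-fold higher, where 1.69% and 1.42% of all genes were. At 1.5-fold the counts were 2 lower and 4 higher, beside 6.42% and 5.42% of all genes, and the 4 higher members made up 9.76% of the family. The difference exceeded 2 errors in 18 members, 11 lower and 7 higher, and was smaller than its error in 12. The shares of all genes past these marks were not counted, so these counts are no finding about the family. The members at either end were of different kinds, however: the low end held interferon-inducible SPRY genes whose probes were mostly bright, and the high end held genes whose probes were mostly dim.

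**Figure D1:**
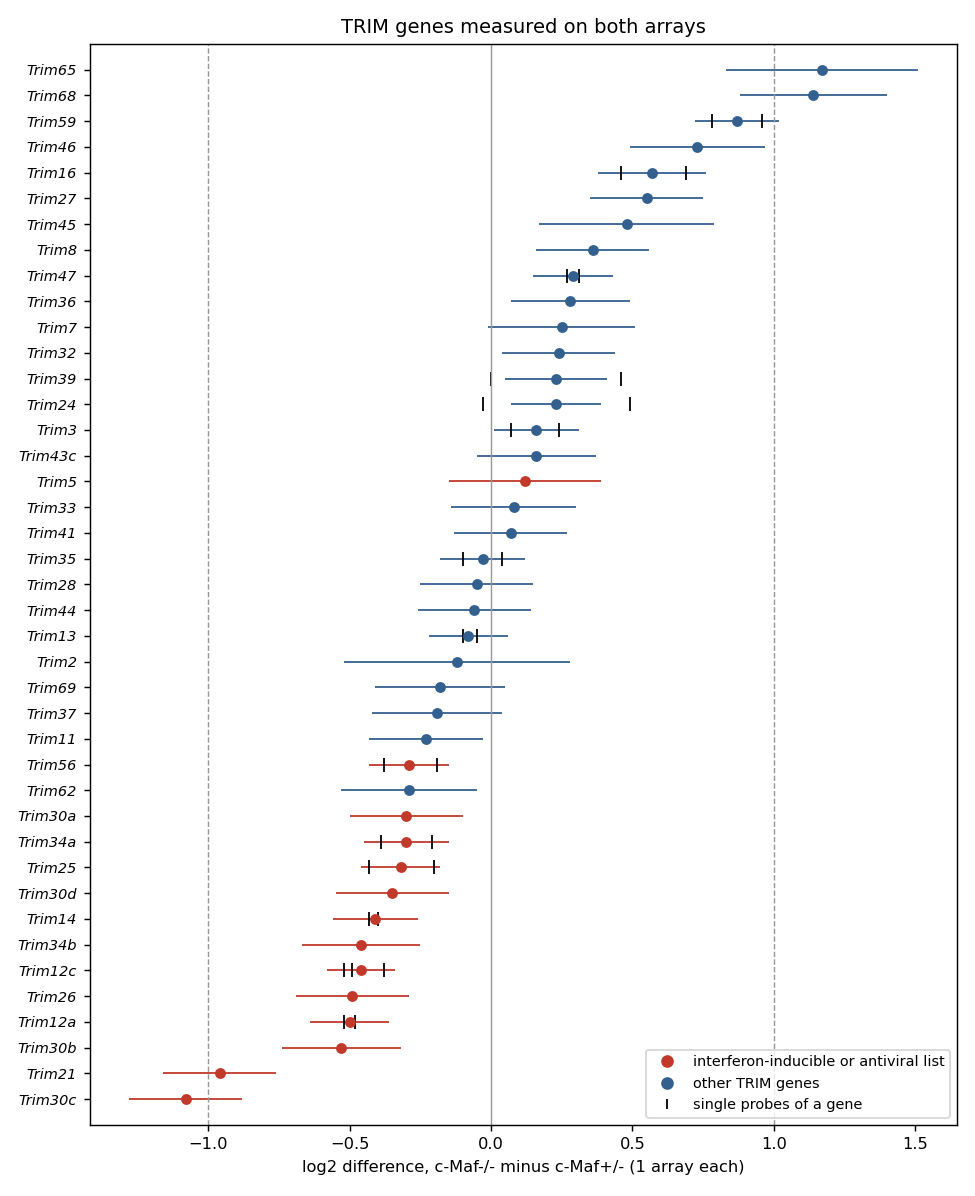
Each row is a TRIM gene measured on both arrays and the x axis is its log2 difference, c-Maf-/- minus c-Maf+/-, from 1 array each. Bars are the ± values derived from the scanner software's error model, ticks are single probes where a gene had several, and dashed lines mark 2-fold. Trim30c lies lowest at -1.08 and Trim65 highest at 1.17, and 13 of the 14 genes of the interferon-inducible or antiviral list lie below 0.

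In the knockout macrophages most members of a list of interferon-inducible or antiviral TRIM genes were lower, mostly by a small amount. The list was drawn up with earlier results of these data known and does not hold every TRIM gene with an antiviral role, such as Trim65, which was the highest member. Of its 15 genes on the array 14 were measured, and 13 of them had a value below 0, where 53.6% of all measured genes did. The median of the list was -0.44, beside 0.23 over the 27 other measured members, 9 of which were below 0. In each of the 4 alternative scalings 13 of the 14 list genes were again below 0. The median of the other members depended on dim signals. It was 0.13 with normexp background correction, 0.15 without background subtraction and 0.07 with a signal of at least 100 on both arrays. Ifnb1, which encodes interferon beta, was lower as well, with signals of 316.9 and 166.5 (-0.95). This value comes from the same pair of arrays and is no independent evidence.

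Trim21 encodes the cytosolic receptor for antibody-coated virus and was the second lowest member. Its signal was 17119.5 in c-Maf+/- and 8981.4 in c-Maf-/-, a log2 difference of -0.96 ± 0.20 from 1 probe (chromosome 7, 109706478 to 109706537, mouse build mm9). It lay at percentile 1.92 of all measured genes, just within 2-fold. Trim25, the ligase known for acting on the RNA sensor RIG-I, had the brightest probe of the family and was much closer to 0. Its probes went from 189246.6 to 142847.8 and from 39085.8 to 34612.2, a mean of -0.32 ± 0.14.

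The remaining antiviral members outside chromosome 7 were lower by similar amounts. Trim26, a SPRY gene of the major histocompatibility region, had signals of 8584.7 and 6201.6 (-0.49 ± 0.20). Trim14, which has no RING finger and serves as an adaptor at the mitochondrial protein MAVS, had mean signals of 1651.5 and 1261.6 (-0.41 ± 0.15, probes at -0.43 and -0.40). Trim56, a ligase of the antiviral response, had 3994.7 and 3328.7 (-0.29 ± 0.14, probes at -0.38 and -0.19). In each gene with several measured probes here, all probes lay below 0.

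A tandem cluster of SPRY genes on chromosome 7 was lower along nearly its whole length. The 11 clustered genes span 304.9 kb of probe positions (111376674 to 111681534, mm9), from Trim6 to the pseudogene Trim30e-ps1, and neither of these end genes was well above background. Of the 9 measured genes between them 8 were below 0, with a median of -0.46, beside 0.12 over the 32 measured members elsewhere, 14 of which were below 0. All 9 also belong to the interferon list, so the cluster is not a separate line of evidence. Trim30c was the only member of the family at least 2-fold lower, with signals of 4737.3 and 2286.8 (-1.08 ± 0.20, 2.11-fold, percentile 1.33), and it was at -0.93 with spike-in scaling, just within 2-fold.

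The neighbours of Trim30c were closer to 0. Trim30a, known for restraining Toll-like receptor signalling through the adaptors TAB2 and TAB3, had signals of 19464.4 and 16078.0 (-0.30 ± 0.20). Trim30d had 16400.2 and 13081.1 (-0.35 ± 0.20), and the dim Trim30b had 258.0 and 181.6 (-0.53 ± 0.21). The bright copies of the Trim30 group thus differed by 1.48 (Trim30a) and 1.72 (Trim30d) times their errors, and Trim30c by 5.27 times.

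The Trim12 and Trim34 copies, relatives of the retrovirus restriction factor TRIM5, lay close together. Trim12a had mean signals of 4038.0 and 2911.3 (-0.50 ± 0.14, probes at -0.52 and -0.48), and Trim12c had 2542.1 and 1875.2 (-0.46 ± 0.12, 3 probes from -0.52 to -0.38). Trim34a had 1337.7 and 1103.9 (-0.30 ± 0.15), and Trim34b had 770.8 and 570.2 (-0.46 ± 0.21). All 4 copies were lower in the knockout on every measured probe. Trim5 itself was the only measured gene of the cluster above 0, at 0.12 ± 0.27, but it was dim (63.5 and 70.3) and turned to -0.02 with normexp background correction. Since genes of this cluster are near copies of each other, a probe may also read its relatives, and this was not tested.

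**Figure D2:**
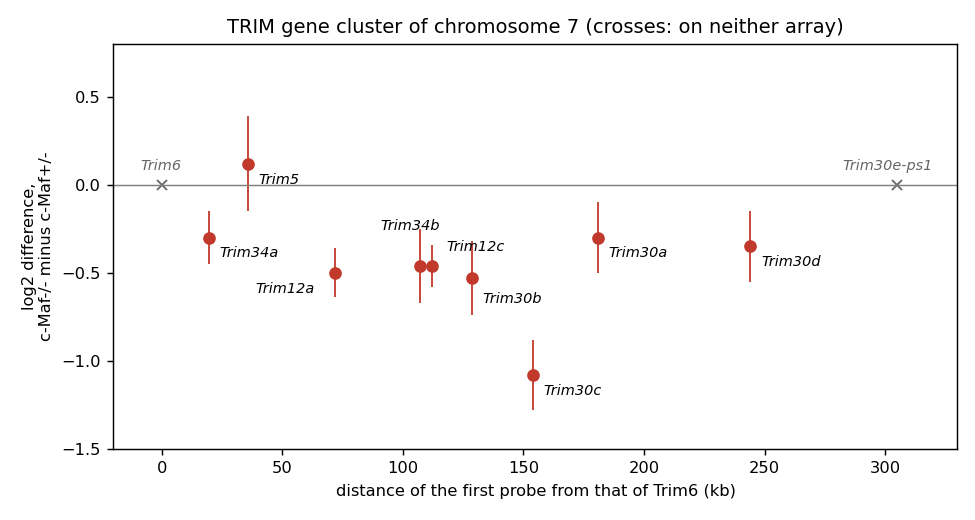
The x axis is the distance in kb of each gene's first probe from that of Trim6 and the y axis is the log2 difference, c-Maf-/- minus c-Maf+/-. Bars are the error-model error and crosses are genes well above background on neither array. Measured genes lie between -0.53 and -0.30 except Trim30c (-1.08) and Trim5 (0.12).

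The interferon-stimulated response element, the DNA site of the interferon-activated ISGF3 complex and of IRF factors, was searched as its core GAAANNGAAA on both strands of RefSeq promoter windows (build GRCm38.p6, 250 bases before to 50 after the annotated start). Windows were found for 51 of the 67 members. The core lay in 9 of these (17.6%), and in 3.99% of the 27025 genes with a window. The 9 were Trim2, Trim5, Trim12a, Trim12c, Trim21, Trim26, Trim30a, Trim30d and Trim34a, all of them measured on both arrays. The windows below show the core or its reverse complement in capitals, and are given for the 8 members that also belong to the interferon list, 7 of which were below 0. They read 5′ to 3′ on the gene's strand. In Trim21, Trim34a and Trim12a the match lies after the annotated start, and these windows are kept to 30 bases. Trim30a is shown at its upstream start.
Trim21 (chr7:102565447-102565476, minus strand): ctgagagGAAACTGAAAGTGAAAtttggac
Trim34a (chr7:104244457-104244486, plus strand): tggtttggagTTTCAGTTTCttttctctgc
Trim12a (chr7:104315466-104315495, minus strand): agagttgtggTTTCTGTTTCatttccagag
Trim12c (chr7:104353350-104353403, minus strand): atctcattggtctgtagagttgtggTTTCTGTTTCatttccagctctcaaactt
Trim5 (chr7:104288121-104288180, minus strand): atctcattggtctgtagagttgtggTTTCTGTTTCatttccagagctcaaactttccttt
Trim30a (chr7:104465195-104465254, minus strand): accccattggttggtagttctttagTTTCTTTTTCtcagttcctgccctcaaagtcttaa
Trim30d (chr7:104507856-104507915, minus strand): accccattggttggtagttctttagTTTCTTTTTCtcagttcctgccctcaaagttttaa
Trim26 (chr17:36836961-36837026, plus strand): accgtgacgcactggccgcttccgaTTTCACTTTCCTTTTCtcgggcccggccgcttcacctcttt

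Several of these windows are copies of each other. Trim30a and Trim30d were identical at 59 of 60 bases and Trim5 and Trim12c at 52 of 54, so the 9 promoters are fewer than 9 independent sequences. Trim21 and Trim26 each hold 2 overlapping matches. Of the 31 measured members with a window, the 9 with the core had a median log2 difference of -0.35 with 8 below 0, and the 22 without it a median of 0.01 with 11 below 0. Over all measured genes with a window, the 374 with the core had a median of -0.12 with 66.6% below 0, and the 8911 without it a median of -0.02 with 53.0% below 0.

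Within the interferon list the core made no such division. The 8 members with it had a median of -0.41 and the 5 without it a median of -0.46, and the latter included Trim30c. Trim5 shared 52 of the 54 bases around the match with Trim12c. Its own value was 0.12 ± 0.27 from 1 dim probe, and -0.02 with normexp, so it lay on no clear side of 0. The letters TGCTGA, part of the site that Maf proteins bind and searched on both strands, lay in 17 of the 51 member windows (33.3%) and in 21.7% of all genes. The 14 measured members with them had a median of -0.07, and the 17 without them -0.29. Over all measured genes with a window the medians were nearly the same, at -0.04 with these letters and -0.02 without them. An NF-kB site searched as GGGANTTTCC on both strands was in 0 of the 51 windows and in 0.466% of all genes. These matches are descriptions of short windows and do not show binding.

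The members higher in c-Maf-/- macrophages were mostly dim and of several kinds. Trim65, a ligase known for acting on the RNA sensor MDA5, had signals of 32.2 and 73.8 (1.17 ± 0.34, 2.25-fold). Its other probe was well above background in c-Maf-/- only, with signals of 24.0 and 45.0 (1.84-fold higher). Trim68, a SPRY gene known as a co-activator of the androgen receptor, had signals of 51.9 and 116.6 (1.14 ± 0.26, 2.21-fold). Both values depended on the background correction, at 0.50 and 0.65 with normexp and at 0.65 and 0.75 without background subtraction, so neither was 2-fold higher then. Trim65 and Trim68 lay at percentiles 99.2 and 99.1 of all genes.

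Trim59, a ligase anchored in membranes, was the higher member with the largest difference in relation to its error. Its probes went from 335.1 to 584.2 and from 191.0 to 376.8, at 0.78 and 0.96, a mean of 0.87 ± 0.15, and it stayed at 0.74 with normexp. The ratio of 5.9 rests on combining its 2 probes, whose errors were 0.21 each. Trim68, with 1 probe, differed by 4.32 times its error. Trim46, a microtubule-binding member known from neuronal axons, had signals of 81.0 and 137.2 (0.73 ± 0.24, and 0.46 with normexp). Trim16, which lacks a RING finger and takes part in the clearance of damaged lysosomes, was at 0.57 ± 0.19 over 2 probes at low signals (60.3 and 91.3) and at 0.31 with normexp. Trim45 was also dim, with signals of 42.6 and 60.7 (0.48 ± 0.31, and 0.18 with normexp).

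Among bright members Trim27 and Trim8 were the farthest above 0. Trim27, a ligase of endosomal sorting, had signals of 2170.2 and 3231.3 (0.55 ± 0.20). Trim8, known for supporting NF-kB activation, had signals of 2398.3 and 3122.5 (0.36 ± 0.20), and its 10 spots, the only replicate spots of a TRIM probe, gave an SD of 0.04. The spread between spots of Trim8 was thus well below its ± value.

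Members on a list of those known to act on NF-kB, Toll-like receptor or inflammasome signalling lay on both sides of 0, more of them above it. This list too was drawn up with earlier results of these data known, and it may not hold every member with such a role. Trim30a is its only gene that is also on the interferon list, so the counts depend on how members were assigned. Of 10 on the array 7 were measured, 5 of them above 0 with a median of 0.24, beside 18 of 27 above 0 and a median of 0.23 over all measured members outside the interferon list. All of the measured ones except Trim30a are themselves among those 27, so the groups are not separate and their likeness shows nothing. Trim59 and Trim27 were past 2 errors above 0, and Trim8, Trim32 and Trim39 were not. Besides Trim59, Trim27 and Trim8 the members above 0 were Trim32, an NHL-repeat ligase (865.1 and 1037.7, 0.24 ± 0.20), and Trim39 (65.6 and 78.2, 0.23 ± 0.18), whose probes lay at 0.46 and 0.00. Trim13, a ligase of the endoplasmic reticulum, had 2443.6 and 2355.4 (-0.08 ± 0.14), and Trim30a was at -0.30. Trim23, Trim31 and Trim38 were well above background on neither array.

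Members were also divided by the mean signal of their probes, which is a property of the probe and no level of the gene: the probes of Trim35, for example, read 15401.2 and 192.7 in the same control sample. Of the 19 members with a mean signal of at least 1000, 16 were below 0 (median -0.30), where 58.9% of all genes with such signals were below 0. Of the 22 members under that signal, 16 were above 0 (median 0.23), where 50.1% of all genes under it were above 0. The split followed the interferon list in part: 11 of the 19 bright members belong to it and all 11 were below 0, while the 8 others had a median of -0.04 with 5 below 0. With an intensity-dependent loess the median of the interferon list was -0.41 and that of the other members 0.25. Before loess the medians of all genes were already alike, at -0.04 for signals of at least 1000 and 0.00 under it. With normexp the medians of the list and of the other members were -0.37 and 0.13. With a signal of at least 100 on both arrays they were -0.46 and 0.07. The part of signal level in the split was not tested. The signal of 1000 was chosen after the values were seen.

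**Figure D3:**
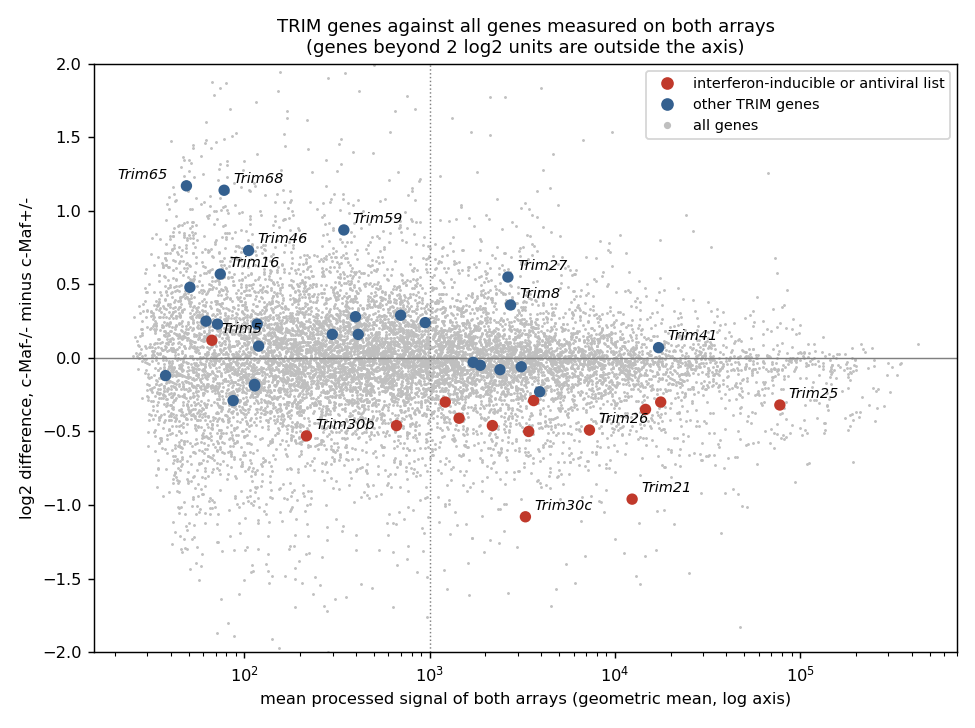
The x axis is the geometric mean of both arrays' processed signals over a gene's probes (log axis), which is no gene level, and the y axis the log2 difference, c-Maf-/- minus c-Maf+/-, with all measured genes in grey. Red points are members of the interferon-inducible or antiviral list and blue points the other TRIM genes, and the dotted line marks a signal of 1000. Bright members lie mostly below 0 and dim ones mostly above, with Trim27 (0.55) and Trim8 (0.36) as bright members above 0.

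The nuclear co-regulators and the NHL-repeat genes lay close to 0. Of the nuclear co-regulators with a PHD finger and bromodomain, Trim28, the co-repressor of KRAB zinc finger proteins, was at -0.05 ± 0.20 with signals of 1895.0 and 1861.0. Trim33, a regulator of SMAD signalling, was at 0.08 ± 0.22, and Trim24, a co-regulator of nuclear receptors, at 0.23 ± 0.16 from a probe with signals of 148.3 and 148.0 (-0.03) and one with 77.8 and 111.3 (0.49). The NHL-repeat genes Trim2 (-0.12 ± 0.40) and Trim3 (0.16 ± 0.15) differed by about their errors or less. The 26 measured SPRY members as a class had a median of -0.26, with 16 below 0, and held both ends of the family. Of 8 microtubule-binding members with a COS box, Trim36 and Trim46 were measured and both were above 0. The 7 measured members with another or no known C-terminal domain had a median of -0.06, from -0.29 (Trim56) to 0.87 (Trim59).

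Some members with bright probes gave nearly the same signal in both genotypes. Trim41 had signals of 16677.6 and 17800.9 (0.07 ± 0.20). Trim35 was at -0.03 ± 0.15, from a bright probe with 15401.2 and 14606.6 (-0.10) and a dimmer one with 192.7 and 201.7 (0.04). Trim44 had signals of 3159.2 and 3089.9 (-0.06 ± 0.20). Trim11, in contrast, had 4216.4 and 3662.4 (-0.23 ± 0.20), a difference of 1.12 times its error. Of the 14 members with more than 1 measured probe, 11 had all probes on the same side of 0, and Trim24, Trim35 and Trim39 did not.

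The remaining measured members differed by at most 1.23-fold. Trim36 (0.28 ± 0.21), Trim47 (0.29 ± 0.14, 2 probes), Trim7 (0.25 ± 0.26) and Trim43c (0.16 ± 0.21) were above 0. Trim62 (-0.29 ± 0.24), Trim37 (-0.19 ± 0.23) and Trim69 (-0.18 ± 0.23) were below 0. Apart from Trim36, Trim47 and Trim62, each of these values was smaller than its error.

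Neighbouring TRIM genes outside the cluster did not share a direction in every case. The probes of Trim21 (-0.96) and Trim68 (1.14) lie 119.9 kb apart on chromosome 7, and these genes were at opposite ends of the family. On chromosome 11 Trim47 (0.29) and Trim65 (1.17) lie 19.0 kb apart and were both above 0. Trim7 (0.25) and Trim41 (0.07), 32.1 kb apart on chromosome 11, were also above 0, each by less than its error. In the histocompatibility region of chromosome 17, Trim26 (-0.49) and Trim39 (0.23) lie farther apart, at 600.2 kb, and were on opposite sides of 0. The dim probes of Trim39 were at 0.46 and 0.00.

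A few members were well above background on 1 array only, at signals near the detection limit. Trim9, a neuronal microtubule-binding member, had signals of 59.8 in the control and 23.2 in the knockout, at least 2.52-fold lower. Trim71, an NHL-repeat gene of stem cells, had 46.8 and 25.7, at least 1.85-fold lower. In the other direction Trim43b had 14.5 and 44.6 (at least 1.96-fold higher) and Trim29, which lacks a RING finger, 5.91 and 32.1 (at least 1.41-fold higher). Each rested on 1 probe, and the bound sets the brighter signal against the higher of the dim probe's own signal and the detection limit of its array (22.3 for c-Maf+/-, 24.2 for c-Maf-/-). A probe of Trim7 was likewise well above background in c-Maf-/- only, at least 3.87-fold higher, while the probe of Trim7 measured on both arrays was at 0.25.

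The 22 members well above background on neither array included those known from other tissues. The muscle genes Trim54, Trim55, Trim63 and Trim72 were among them, as were all 4 skeletal muscle markers, and so was Trim10, known from erythroid cells. The others were Trim6, Trim15, Trim17, Trim23, Trim30e-ps1, Trim31, Trim38, Trim40, Trim42, Trim50, Trim52, Trim58, Trim60, Trim61, Trim66, Trim67 and Trim75. For these genes no difference was detectable at these signals.

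TRIM proteins under other gene names gave a mixed picture. Pml, the TRIM19 protein of nuclear bodies and an interferon-inducible gene, was at -0.45 ± 0.14 with probes at -0.48 and -0.43, near the interferon-inducible members above. Mefv, which encodes pyrin, was at -0.21 ± 0.14, Mid1 at 0.00 ± 0.12 and the dim Cmya5 at 0.69 ± 0.25. Of 10 such genes 4 were measured, and 0 of these were past 2-fold.

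The E2 enzymes, which hand ubiquitin to RING ligases, lay close to 0 with a few exceptions. All 13 on the array were measured, 11 (84.6%) were below 0, where 53.6% of all genes were, and the median was -0.12, with many values at about their error or less. The farthest were Ube2d1 (-0.85 ± 0.37, dim), Ube2e1 (-0.48 ± 0.12), Ube2e3 (-0.47 ± 0.14) and, above 0, Ube2v2 (0.64 ± 0.14), whose 3 probes ranged from 0.06 to 1.70. The only other E2 gene above 0 was Ube2k (0.03 ± 0.14).

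Partners and substrates of TRIM ligases went both ways, with 15 of 24 (62.5%) below 0, beside 53.6% of all genes, and a median of -0.13. Lowest were Tmem173, which encodes the DNA-sensing adaptor STING (-0.72 ± 0.20), the RNA sensor gene Ifih1, which encodes MDA5 (-0.57 ± 0.14), and Trp53 (-0.56 ± 0.21). Highest were the adaptor gene Mavs (0.62 ± 0.20), the ligase gene Traf6 (0.51 ± 0.15 over 3 probes from 0.31 to 0.72) and Ulk1 (0.28 ± 0.20). Of these 24 genes, 0 were past 2-fold.

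**Figure D4:**
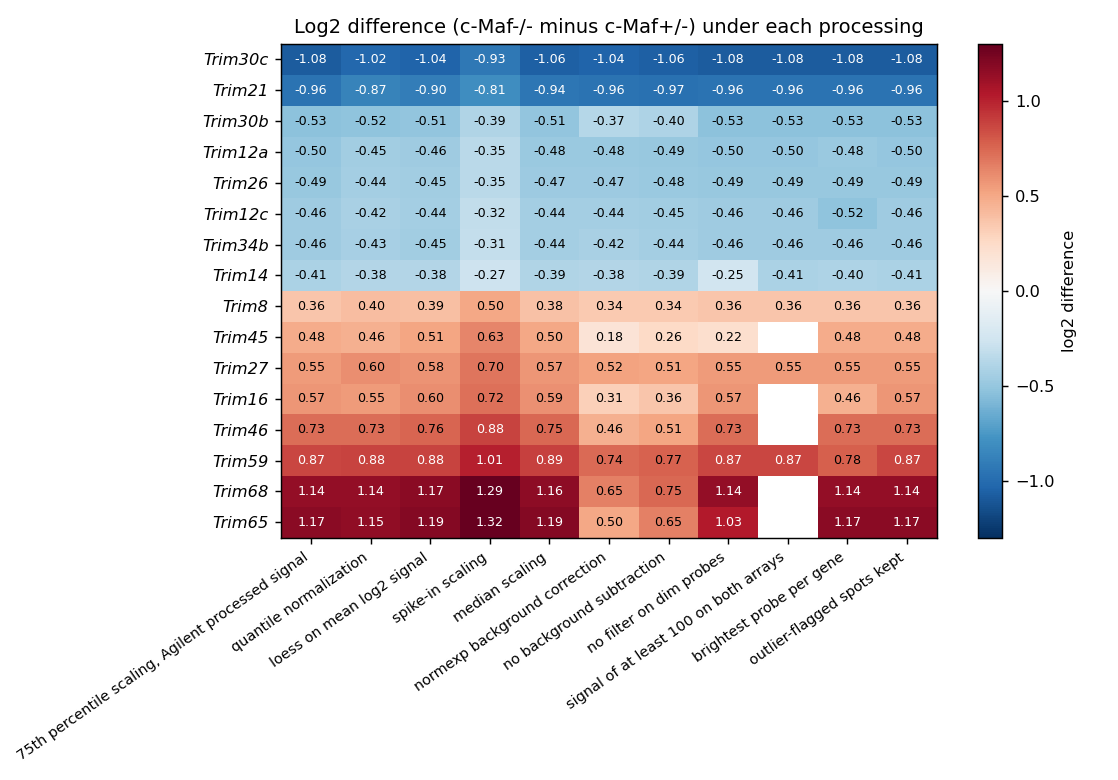
Rows are the 8 TRIM genes farthest below 0 and the 8 farthest above 0, columns are the processing settings, and each cell is the log2 difference, c-Maf-/- minus c-Maf+/- (blank where a gene had no measured probe). Trim30c ranged from -1.08 to -0.93 and Trim21 from -0.97 to -0.81, while Trim65 ranged from 0.50 to 1.32 and Trim68 from 0.65 to 1.29 where measured.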

How the data were processed

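One-colour (Cy3) arrays of design 028005 were extracted by the authors with Agilent Feature Extraction 10.7.3.1, per the file headers. The deposited values are linear spot intensities, background-subtracted and detrended within each array, with no normalization between arrays, and 0 or 1 flags of another unit for detection, saturation and outliers. From 50 ng of RNA per array, per the labels, 59305 non-control spots were read. Here log2 signals were scaled to each array's 75th percentile (291 and 296), outlier-flagged spots dropped (136 and 149), spots averaged by probe and measured probes by gene. A probe was measured where every usable spot was well above background on both arrays. Counts over all genes cover the 11687 names that equal a RefSeq symbol (table build GRCm38.p6). Lists may hold older names as well. Probe coordinates are mm9 as in the files, and exon or UTR positions were not used here.

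Members and lists were chosen with earlier results of these data known. All members are named, and the 8 farthest from 0 each way, the 6 brightest, those with probes of opposite sign, both signalling lists and those on 1 array only are given in full. From the E2, partner and other-name lists the 3 farthest each way are named, and from the marker lists only a few, as the check of cell types. Alternatives used limma 3.58.1 (normexp, offset 50) and statsmodels 0.14.6 (loess, span 0.4). The gene summary was tested on simulated data. Some genes of the lists are not reported here.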

Additional observations from a re-analysis of the deposited data

How the results depend on the processing

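Across 10 alternatives, 379 of 400 gene values stayed within their error of the reported value, and 21 moved further. Part of this likeness was fixed in advance. Taking the brightest probe cannot change a gene with 1 measured probe, and spike-in scaling shifts every gene by the same amount. All 6 members past 1.5-fold kept their direction wherever they were measured, while 7 members changed sign under at least 1 alternative, all of them with reported values between -0.12 and 0.23. Spike-in scaling moved the median of all genes by 0.15 and the higher share of their 2-fold calls from 45.6% to 66.8%. With it the TRIM median was 0.09, 0 members were 2-fold lower (3 were 2-fold higher) and 7 were 1.5-fold higher. With normexp, 0 members were 2-fold higher and 2 were 1.5-fold higher, and without background subtraction 0 were 2-fold higher. Without the filter on dim probes all 67 genes had a value, with a median of 0.06, 3 members 2-fold lower, 7 higher, 6 at least 1.5-fold lower and 11 higher. With a signal of at least 100 on both arrays the median was -0.18, 0 members were 2-fold higher and 1 was 1.5-fold higher, among the 31 genes left. The interferon-inducible list had 13 of 14 below 0 in the main setting, 14 of 14 with normexp and medians from -0.46 to -0.29 over all settings. Medians of the members outside that list went from 0.07 to 0.37. No paired analysis was possible because each genotype had 1 array. Low signals limit what can be read from dim members, and a single array per genotype limits all values.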

Other observations

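A probe outside the naming rule carries an annotation as a TRIM30B transcript under an Ensembl name only. Its signals were 8656.9 in c-Maf+/- and 6244.3 in c-Maf-/-, a log2 difference of -0.50, near that of the Trim30b probe (-0.53), whose signals were 258.0 and 181.6. The probes of Triml1 and Triml2, relatives of the family, and of a clone annotated as TRIM8 were well above background on neither array.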
